A study of Mus musculus with 3 samples.

Results

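Annexins are cytosolic proteins that bind acidic membrane phospholipids when calcium rises. They link membranes to each other and to the cytoskeleton, and they take part in membrane repair, vesicle transport and the handling of phosphatidylserine, the lipid that dying cells expose. In the adult lung Anxa1 is known as an anti-inflammatory ligand of formyl peptide receptors, Anxa2 binds S100a10 and plasminogen at the cell surface, and Anxa5 is the classic probe for exposed phosphatidylserine. The 9 annexin genes described here, Anxa1 to Anxa8 and Anxa11, were named as a family out of the 30406 genes found in every table. They were picked from the family with earlier results of these data known, and they were in effect selected on detection. 11 annexin genes stood in every table and 12 in the Epcam+ Icam+ tables. Of those left out, Anxa9 was at 0 to 0.745 CPM (a gene's share of all UMIs, unique molecules, scaled as counts per 1e6) in every class of at least 20 cells, and Anxa10 gave 1 UMI over these classes. Anxa8, just inside the choice, ran from 0 to 10.1 CPM.

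The cells came from lungs of C57/B6 mouse embryos at E14.5, when the lung is a branching epithelial tree with growing distal tips and differentiating airways. Lungs of embryos from a pair of females were pooled, dissociated and sorted with antibodies against Epcam, an epithelial surface protein, and Icam1, an adhesion molecule for leukocytes. 2 libraries held cells labelled Epcam+ Icam+ and 1 library held cells labelled Epcam+, with no Icam1 status in its label. Icam1 itself was at 202 and 195 CPM in Epcam+ Icam+ epithelial cells and at 165 CPM in Epcam+ ones. All groups shared strain, age and tissue, and none carried a transgene or treatment. Whether each library came from its own pool of lungs is not stated, so every p-value below rests on library-to-library spread that may be technical. The Epcam+ Icam+ libraries held 74170599 and 67843828 UMIs and the Epcam+ library held 84460347, and 3303, 3081 and 2918 cells were kept, with a median of 19598, 19513 and 26680.5 UMIs. The Epcam+ library also had another gene table and another processing version, so sort and library cannot be told apart. The 2 Epcam+ Icam+ libraries shared 2 cell barcodes and neither shared one with the Epcam+ library.

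Cells were put into classes by their own UMIs of marker genes after each cell was thinned to 10000 UMIs, and levels were then summed over all UMIs of the cells of a class. Epithelial cells numbered 2010, 1808 and 2369 in the Epcam+ Icam+ replicates 1 and 2 and the Epcam+ library. Hopx/Clic5-positive cells had a UMI of each of those alveolar type 1 genes and none of Sox2, with or without Sox9 (314, 253 and 4). Airway-like cells had Sox2 and no Sox9 (76, 90 and 189). Tip-like cells had Sox9, no Sox2 and not both Hopx and Clic5 (500, 504 and 929). The remaining epithelial cells entered none of these classes. Of them 15, 11 and 52 held both Sox2 and Sox9, and 1105, 950 and 1195 met none of these conditions. Macrophage-like cells numbered 425, 404 and 52. Genes outside the gates were checked against the names. Ager, an alveolar type 1 gene, was at 362 and 342 CPM in Hopx/Clic5-positive cells against 234 and 228 CPM in tip-like cells of the same Epcam+ Icam+ libraries, and Scgb3a2, a secretory airway gene, was at 1581, 1797 and 448 CPM in airway-like cells against 15.1, 48.3 and 18.6 CPM in tip-like cells. Hopx/Clic5-positive cells nevertheless kept much of the distal programme, with Sftpc at 2686 and 4246 CPM, so they are called by their gate and not by a cell type. Airway-like cells held 8 summed airway markers at 2221, 2541 and 971 CPM and 8 summed distal tip markers at 510.4, 1089.8 and 1489 CPM, so in the Epcam+ library the tip markers exceeded the airway markers in this class, and annexin values of Epcam+ airway-like cells are to be read beside that. RNA from other cells was visible: 4 epithelial genes outside the gates (Sftpc, Cldn6, Cldn7 and Spint2) stood in macrophage-like cells at 3.58% to 9.48% of their tip-like level in Epcam+ Icam+ and at 13.1% to 17.7% in Epcam+, whereas Tyrobp stood in tip-like cells at 0.0570% to 0.549% of its macrophage-like level.

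The protein-coding member genes lie apart from each other in the mouse genome (GRCm38 coordinates from GENCODE): Anxa1 at chr19:20373428-20390944, Anxa2 at chr9:69453620-69491795, Anxa3 at chr5:96793339-96845966, Anxa4 at chr6:86736840-86793584, Anxa5 at chr3:36448923-36475894, Anxa6 at chr11:54979108-55033445, and Anxa7, Anxa11 and Anxa8 at chr14:20455260-20480133, chr14:25842156-25886804 and chr14:34085981-34100571. Exons of Anxa2, Anxa4 and Anxa11 overlap an annotated gene on the opposite strand by 98, 75 and 113 bases. Whether the counting used strand is not given in the sources used here. Exons of Anxa3 overlap those of Gm42603 on the same strand by 112 bases, and Gm42603 is absent from the gene tables of both sorts.

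Promoters are shown for Anxa1 and Anxa2, whose levels took the same order across the epithelial classes below. The RefSeq sequences run 5′ to 3′ from 250 bases before to 50 bases after the RefSeq gene start (GRCm38.p6, chr19:20390622-20390921 on the minus strand and chr9:69453433-69453732 on the plus strand). The RefSeq start of Anxa1 differs from the GENCODE one, and its whole window lies within the GENCODE interval given above. Matches to the TATA box letters TATAAA and the AP-1 letters TGANTCA are in capitals.
Anxa1: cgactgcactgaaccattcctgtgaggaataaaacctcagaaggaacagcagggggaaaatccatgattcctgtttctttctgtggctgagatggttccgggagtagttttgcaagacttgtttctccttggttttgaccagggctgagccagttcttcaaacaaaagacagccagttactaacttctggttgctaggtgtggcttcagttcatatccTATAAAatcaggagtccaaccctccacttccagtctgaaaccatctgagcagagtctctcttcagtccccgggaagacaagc
Anxa2: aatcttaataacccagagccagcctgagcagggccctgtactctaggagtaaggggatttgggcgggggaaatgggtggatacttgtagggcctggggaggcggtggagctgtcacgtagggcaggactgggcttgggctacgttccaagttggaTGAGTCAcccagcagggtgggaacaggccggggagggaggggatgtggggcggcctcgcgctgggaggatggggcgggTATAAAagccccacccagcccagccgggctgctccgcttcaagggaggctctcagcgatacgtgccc
Both windows hold 1 TATAAA match, which 14.2% of 27025 promoters of this length hold on either strand. The Anxa2 window also holds 1 TGANTCA match, against 7.93% of all promoters, and no such letters stand in the Anxa1 window. The GC content was 47.3% for Anxa1 and 63.7% for Anxa2. Promoters of Anxa4, Anxa5, Anxa7, Anxa8 and Anxa11 held neither TATAAA nor TGANTCA, and those of Anxa3 and Anxa6 were not analysed here. The letters of TEAD (GGAATG), NKX2-1 (CAAGTG) and the GC box (GGGCGG) were searched as well and are not marked. The Anxa1 window held a GGAATG match and the Anxa2 window GGGCGG matches, as 14.6% and 35.9% of all promoters did.

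Levels of Anxa1 were highest in airway-like cells. In the Epcam+ Icam+ replicates 1 and 2 Anxa1 stood at 577 and 627 CPM in airway-like cells, 412 and 348 CPM in Hopx/Clic5-positive cells, 56.3 and 59.0 CPM in macrophage-like cells and 228 and 244 CPM in tip-like cells. The Epcam+ library had 311 CPM in airway-like cells, 53.1 CPM in macrophage-like cells and 64.1 CPM in tip-like cells. The 95% Poisson intervals of the 4 classes did not overlap within either Epcam+ Icam+ library. In the Epcam+ library the intervals of macrophage-like cells (42.0 to 66.3 CPM) and tip-like cells (61.2 to 67.0 CPM) did overlap. These intervals, here and below, cover counting error only.

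Anxa2, the plasminogen and S100a10 partner, kept the same order in the epithelium. It stood at 505 and 547 CPM in airway-like cells of the Epcam+ Icam+ libraries, 426 and 392 CPM in Hopx/Clic5-positive cells, 120 and 122 CPM in macrophage-like cells and 299.6 and 302 CPM in tip-like cells. The Epcam+ library had 487 CPM in airway-like cells, 163 CPM in macrophage-like cells and 170.4 CPM in tip-like cells. Airway-like cells differed little between the sorts, while the tip-like level of the Epcam+ library lay below both tip-like levels of the Epcam+ Icam+ libraries.

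Anxa3, a phospholipid-binding member known from neutrophils and vessel growth, was a macrophage-high gene. Macrophage-like cells held 223 and 232 CPM in Epcam+ Icam+ and 263 CPM in Epcam+. Among epithelial cells of the Epcam+ Icam+ libraries it was at 139 and 133 CPM in Hopx/Clic5-positive cells, 92.8 and 115 CPM in airway-like cells and 75.3 and 88.5 CPM in tip-like cells. In the Epcam+ library airway-like cells had 17.5 CPM and tip-like cells 11.9 CPM. All Epcam+ Icam+ epithelial values thus lay above both Epcam+ values, and the macrophage-like values lay near each other in all 3 libraries.

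Anxa5 was also highest in macrophage-like cells, at 310 and 320 CPM in Epcam+ Icam+ and 362 CPM in Epcam+. Its epithelial levels stayed within a narrow band, with 182 and 162 CPM in Hopx/Clic5-positive cells, 163, 158 and 169.8 CPM in airway-like cells, and 158, 157 and 151 CPM in tip-like cells. The airway-like and tip-like intervals overlapped in both Epcam+ Icam+ libraries but not in the Epcam+ library (159 to 181 CPM against 147 to 156 CPM), and Hopx/Clic5-positive cells lay above tip-like cells in Epcam+ Icam+ replicate 1 alone (172 to 192 CPM against 151 to 165 CPM).

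Anxa4, an annexin of epithelia, ran the other way. It was at 108 and 102 CPM in Hopx/Clic5-positive cells and 109.2 and 109.1 CPM in tip-like cells of the Epcam+ Icam+ libraries, and at 91.6 CPM in tip-like cells of the Epcam+ library. Airway-like cells had 56.4, 57.8 and 58.2 CPM and macrophage-like cells 32.8, 33.6 and 46.3 CPM in the 3 libraries. Distal epithelium was therefore above airway-like epithelium in every library, and Hopx/Clic5-positive and tip-like intervals overlapped.

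Anxa8, known from squamous and other barrier epithelia, gave few UMIs and most of them per cell in the airway. Airway-like cells gave 16, 20 and 29 UMIs (8.44, 10.1 and 5.65 CPM), and tip-like cells gave 1, 2 and 12 UMIs (0.0810, 0.157 and 0.402 CPM). The ratio of airway-like to tip-like level was 104 (95% exact interval 16.2 to 4367) and 64.1 (15.6 to 566) in Epcam+ Icam+ and 14.1 (6.96 to 30.3) in Epcam+, for counting error alone. Macrophage-like cells gave 4, 3 and 0 UMIs and Hopx/Clic5-positive cells 2 in each Epcam+ Icam+ library. At 10000 UMIs per cell, 6 of 76, 6 of 90 and 6 of 189 airway-like cells held an Anxa8 UMI, against 0 of 500, 0 of 504 and 2 of 929 tip-like cells.

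Anxa6, Anxa7 and Anxa11, which are expressed in most tissues, varied least across the 11 points of class and library, with SDs of 0.24, 0.28 and 0.30 on the log2(CPM + 5) scale. The largest SDs were 1.37 for Anxa1 and 1.30 for Anxa3. Anxa6 ranged from 52.7 CPM in airway-like cells of Epcam+ Icam+ replicate 1 to 101 CPM in macrophage-like cells of the Epcam+ library, Anxa7 from 33.4 to 65.4 CPM, and Anxa11 peaked at 29.97 CPM from a low of 12.9 CPM. For each of these genes the highest value was that of macrophage-like cells in the Epcam+ library, a class of 52 cells.

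**Figure D1:**
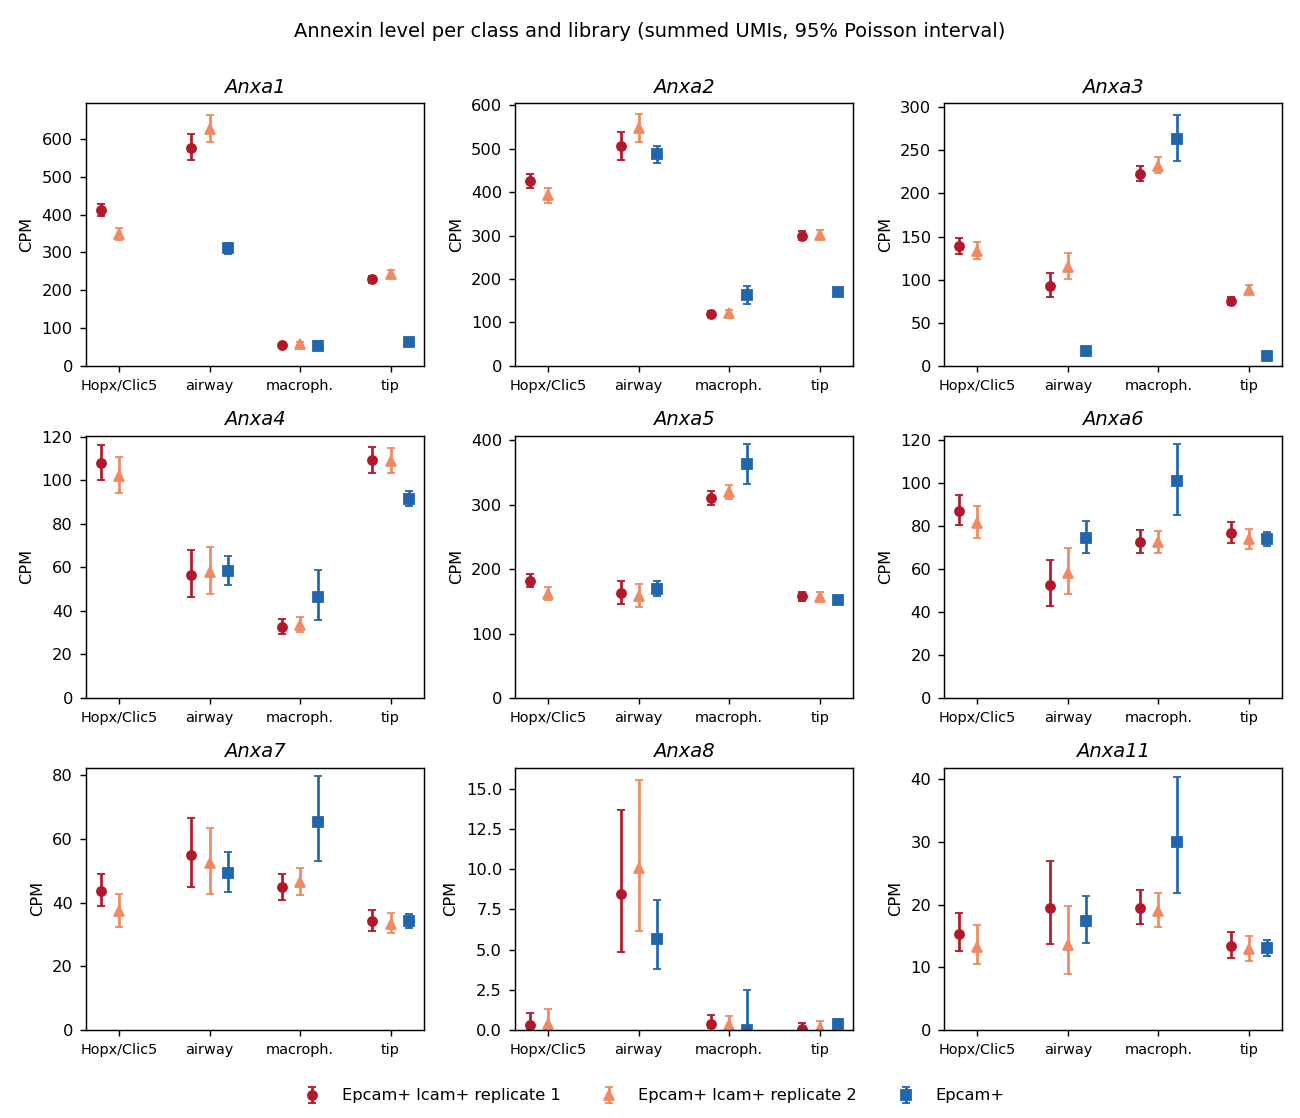
Level of each annexin (CPM, linear axes that start at 0) in Hopx/Clic5-positive, airway-like, macrophage-like and tip-like cells, with 1 point per library and 95% Poisson intervals of the summed counts. Anxa1 and Anxa2 are highest in airway-like cells, Anxa3 and Anxa5 in macrophage-like cells, and Anxa8 rises above 1 CPM in airway-like cells alone. Hopx/Clic5-positive cells of the Epcam+ library (4 cells) are not drawn.

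Hopx/Clic5-positive cells were set against tip-like cells to ask whether cells with both Hopx and Clic5 UMIs differ in annexins. Tip-like cells were not free of alveolar type 1 transcripts. In Epcam+ Icam+ replicates 1 and 2, 178 of 500 and 201 of 504 tip-like cells held neither gene among the thinned UMIs. The 8 summed alveolar type 1 markers, Hopx and Clic5 included, stood at 556 and 527 CPM in tip-like cells. In Hopx/Clic5-positive cells they stood at 973 and 965 CPM. Anxa1 was higher by a log2 difference of 0.84 and 0.50 in the Epcam+ Icam+ replicates 1 and 2 (pseudocount 5 CPM), Anxa3 by 0.84 and 0.57, and Anxa2 by 0.50 and 0.37. Anxa4 differed by -0.01 and -0.09. Of 7 members with a mean of at least 20 CPM in one of the classes, 0 were past 2-fold higher in both libraries and 0 past 2-fold lower, where 0.0716% of 5585 such genes were past 2-fold higher and 0.179% lower. Their median was 0.22, against -0.01 over all 5585 genes. The classes were cut from the same cells' transcripts, so this and the next comparisons are descriptions with no test. The 4 Hopx/Clic5-positive cells of the Epcam+ library held 10 Anxa1 UMIs (77.7 CPM, 37.3 to 143) and 5 Anxa3 UMIs (38.9 CPM, 12.6 to 90.7), too few to set against its tip-like cells.

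Airway-like against tip-like cells differed most in Anxa1 among the 7 members with a mean of at least 20 CPM in one of the classes. Folds in this and the next class comparison are ratios after adding 5 CPM to both levels. Anxa1 was 2.49-fold and 2.54-fold higher in airway-like cells of Epcam+ Icam+ and 4.57-fold higher in those of Epcam+. It was the 1 member of 7 past 2-fold in every library, all on the higher side, where 1.49% of 5823 genes were past 2-fold higher and 0.773% past 2-fold lower. Anxa2 followed with 1.67-fold, 1.80-fold and 2.81-fold. Anxa7 was higher by 1.52-fold, 1.49-fold and 1.39-fold, and Anxa4 was lower, at log2 differences of -0.89, -0.86 and -0.61. The median of the 7 members was 0.35, against 0.02 over all genes. With classes taken from clusters at resolution 1, which gave tip-like clusters in the Epcam+ Icam+ libraries alone, the Anxa1 difference was a mean log2 of 1.00 and 0 members were past 2-fold in both. The share of all genes is not set beside that count.

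Within the airway-like class Anxa1 and Anxa2 were higher still in cells with 10 or more Scgb3a2 UMIs. Anxa1 stood at 894, 820 and 414 CPM in those 17, 24 and 20 cells, against 501, 562 and 301 CPM in the 59, 66 and 169 other airway-like cells. Anxa2 stood at 772, 702 and 673 CPM, against 441, 495 and 470 CPM. The intervals of the subsets did not overlap in any library for either gene. Anxa8 had no common direction, with 35.4, 9.88 and 0 CPM in the Scgb3a2-high cells and 1.96, 10.1 and 6.16 CPM in the rest.

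Macrophage-like against tip-like cells differed in both directions among the members. With 5 CPM added to both levels Anxa3 was 2.84-fold and 2.54-fold higher in macrophage-like cells of Epcam+ Icam+ and 15.9-fold higher in those of Epcam+, and it was the 1 member of 8 past 2-fold in every library, where 14.1% of 6370 genes were past 2-fold higher and 12.1% lower. A count of 1 of 8 is near those shares, so it does not set the family apart from all genes. Anxa5 was 1.93-fold, 2.00-fold and 2.35-fold higher. Anxa1 was lower by log2 differences of -1.93 and -1.96 in Epcam+ Icam+ and -0.25 in Epcam+, Anxa2 by -1.28, -1.27 and -0.06, and Anxa4 by -1.60, -1.56 and -0.91. Over the Epcam+ Icam+ libraries alone 4 members were past 2-fold, Anxa3 higher and Anxa1, Anxa2 and Anxa4 lower, so the Epcam+ library decides the count of 1. The shares of all genes given here are for all 3 libraries, so they are no background for the count of 4. No trait of the family is read from that count. The Anxa1 level of macrophage-like cells was 24.6% and 24.1% of the tip-like level in Epcam+ Icam+ and 82.9% in Epcam+. The 4 epithelial genes outside the gates stood at 3.58% to 9.48% and at 13.1% to 17.7%. Anxa1 was lower in tip-like cells than in all epithelium (228 and 244 against 312 and 313 CPM, and 64.1 against 99.3 CPM in Epcam+). Its share of the tip-like level is therefore larger than its share of the epithelial level. The part of free RNA was not tested.

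**Figure D2:**
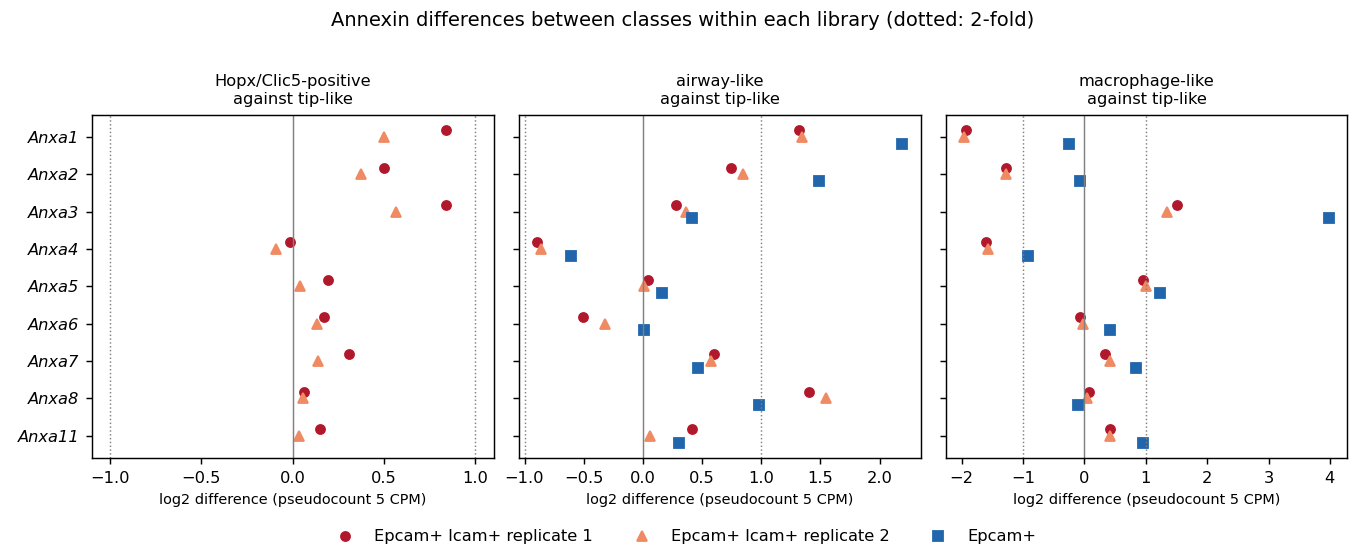
Difference of each annexin between Hopx/Clic5-positive, airway-like or macrophage-like cells and the tip-like cells of the same library, on the log2 scale with a pseudocount of 5 CPM. Each point is 1 library, the dotted lines mark 2-fold, and the panels have their own horizontal ranges. Anxa1 lies past 2-fold in airway-like cells and Anxa3 past 2-fold in macrophage-like cells of all 3 libraries.

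Epcam+ Icam+ epithelium was then set against Epcam+ epithelium, to see what sets apart epithelium gated on both surface proteins. In all epithelial cells Anxa1 stood at 312 and 313 CPM in the Epcam+ Icam+ libraries, against 99.3 CPM in the Epcam+ library. Anxa3 stood at 96.5 and 96.4 CPM against 13.6 CPM, and Anxa2 at 355 and 344 CPM against 213 CPM. On the log2 scale Anxa1 rose by 1.54 ± 0.033 (SE; edgeR, adjusted p = 3.66e-12), Anxa3 by 2.71 ± 0.044 (adjusted p = 4.15e-13) and Anxa2 by 0.61 ± 0.032 (adjusted p = 4.22e-09). Anxa6 was lower at -0.18 ± 0.037 (adjusted p = 6.69e-04). Thus 4 of 9 members passed an adjusted p of 0.05, where 77.4% of all 14814 genes tested did, so passing the threshold sets no member apart. The other 5 members had log2 fold changes from -0.31 for Anxa8 to 0.07 for Anxa4. The family's median was -0.03, against 0.02 over all genes.

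In tip-like cells Anxa1 rose by 1.78 ± 0.044, Anxa3 by 2.68 ± 0.087, Anxa2 by 0.71 ± 0.038 and Anxa4 by 0.15 ± 0.050, so 4 of 8 members tested passed, against 74.1% of 12784 genes. The adjusted p was 2.90e-197 for Anxa3, 1.54e-77 for Anxa2 and 0.00462 for Anxa4, and for Anxa1 it was smaller than the software can store. These sort fits left 1 residual degree of freedom, and in tip-like, airway-like and macrophage-like cells edgeR used a spread common to all genes of like abundance and none of the gene's own, so p-values of this size understate the error between samples. The Anxa4 call was lost with DESeq2 and 6 other settings, and its sign turned, to -0.13, with each cell thinned to 3000 UMIs. Beside these values, tip-like cells of the Epcam+ Icam+ libraries had Hopx at 133 and 124 CPM and Sftpc at 8423 and 7858 CPM, against 10.3 and 2727 CPM in the Epcam+ library, and a median of 22495.5 and 23178 UMIs per cell against 29485. Their part in the annexin differences was not tested. Tip-like cells were also limited to those with no Hopx or Clic5 among the thinned UMIs that the gates read. Either gene may still stand among their other UMIs. Anxa1, Anxa2 and Anxa3 kept their direction and call there. That fit called 7464 of 11503 genes, so an unchanged call does not measure the part of Hopx or Clic5 in the annexin differences.

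Airway-like cells showed Anxa3 higher in Epcam+ Icam+ by 2.47 ± 0.19 (adjusted p = 2.24e-35) and Anxa1 by 0.86 ± 0.11 (adjusted p = 5.37e-13). Anxa6 was lower at -0.52 ± 0.17 (adjusted p = 0.00473), a call lost with DESeq2, with cells or gates at 3000 UMIs, and with stricter-filter clusters. Anxa2 differed by 0.02 ± 0.11 (adjusted p = 0.904). This made 3 of 9 members, against 52.4% of 10328 genes.

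In macrophage-like cells the calls were Anxa2 at -0.31 ± 0.11 (adjusted p = 0.0117), Anxa6 at -0.35 ± 0.13 (adjusted p = 0.0183) and Anxa7 at -0.40 ± 0.16 (adjusted p = 0.0313) lower in Epcam+ Icam+. These were 3 of 8 members, against 43.2% of 11969 genes. With DESeq2 (2415 of 8468 genes called), without the filter on low counts (4930 of 17076), or with cells thinned to 3000 UMIs (932 of 8084) 0 members passed. Anxa1 (0.24 ± 0.16) and Anxa3 (-0.09 ± 0.088) did not pass, and when macrophages were taken from clusters within each library Anxa3 turned to 0.67.

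**Figure D3:**
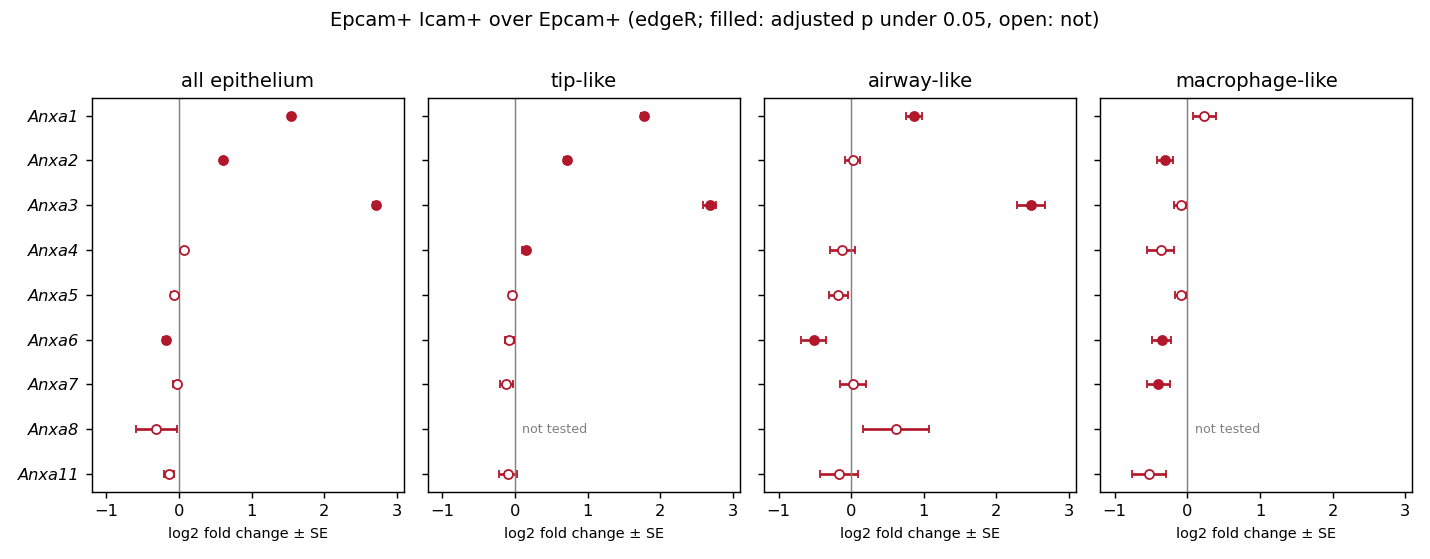
Log2 fold change (± SE) of each annexin in Epcam+ Icam+ (2 libraries) over Epcam+ (1 library), from edgeR fits on summed counts in all epithelium, tip-like, airway-like and macrophage-like cells. Filled points passed an adjusted p of 0.05. Anxa3 lies between 2.47 and 2.71 in the 3 epithelial panels and near 0 in macrophage-like cells.

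The difference of these differences was tested in 1 fit over the 3 classes with library as a block. The fit follows the 1 Epcam+ library exactly, so its 2 residual degrees of freedom come from the 2 Epcam+ Icam+ libraries alone. Spread between Epcam+ libraries was not measured, so p-values of this fit understate the error between samples. The classes were also cut from the same cells' transcripts. Relative to tip-like cells, the Epcam+ Icam+ minus Epcam+ difference in airway-like cells was smaller by a log2 of -0.85 ± 0.096 for Anxa1 (adjusted p = 1.65e-08) and -0.63 ± 0.090 for Anxa2 (adjusted p = 3.67e-06). Anxa3 differed by -0.14 ± 0.20 (adjusted p = 0.873). These were 2 of 9 members, against 2.49% of 14239 genes. In macrophage-like cells the difference was smaller than in tip-like cells by -1.44 ± 0.20 for Anxa1 (adjusted p = 3.98e-07), -0.92 ± 0.13 for Anxa2 (adjusted p = 3.42e-07) and -2.66 ± 0.14 for Anxa3 (adjusted p = 1.69e-20), or 3 of 9 members against 12.0% of genes. The median over all genes in that contrast was 0.25, so relative to it the 3 differences were larger, and RLE scaling moved the median by -0.13 and the calls over all genes from 1380 higher and 332 lower to 748 higher and 400 lower. With cells thinned to 3000 UMIs the macrophage contrast called 241 of 10791 genes. It kept Anxa3 at -2.85 as the only member called, while Anxa1 (-1.45) and Anxa2 (-0.90) did not pass.

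Shares of cells showed how the levels were spread. At 10000 UMIs per cell, Anxa1 was seen in 92.1%, 94.4% and 79.4% of airway-like cells, in 89.8% and 83.8% of Hopx/Clic5-positive cells, in 34.4%, 35.1% and 30.8% of macrophage-like cells, and in 79.4%, 75.4% and 38.1% of tip-like cells. Tip-like cells of the Epcam+ Icam+ libraries would have reached 91.1% and 92.6% had UMIs at the same mean been spread by chance alone over cells. The highest cell held 18 and 59 UMIs there. Anxa5 lay much closer to even, with 75.8%, 77.2% and 77.3% of tip-like cells against 79.6%, 79.8% and 78.8%. Anxa3 was seen in 44.6% and 53.0% of Epcam+ Icam+ tip-like cells and in 9.47% of Epcam+ ones. Median depths before thinning were 18751 to 22354 UMIs for airway-like cells, 23720 to 26722.5 for macrophage-like cells and 22495.5 to 29485 for tip-like cells.

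**Figure D4:**
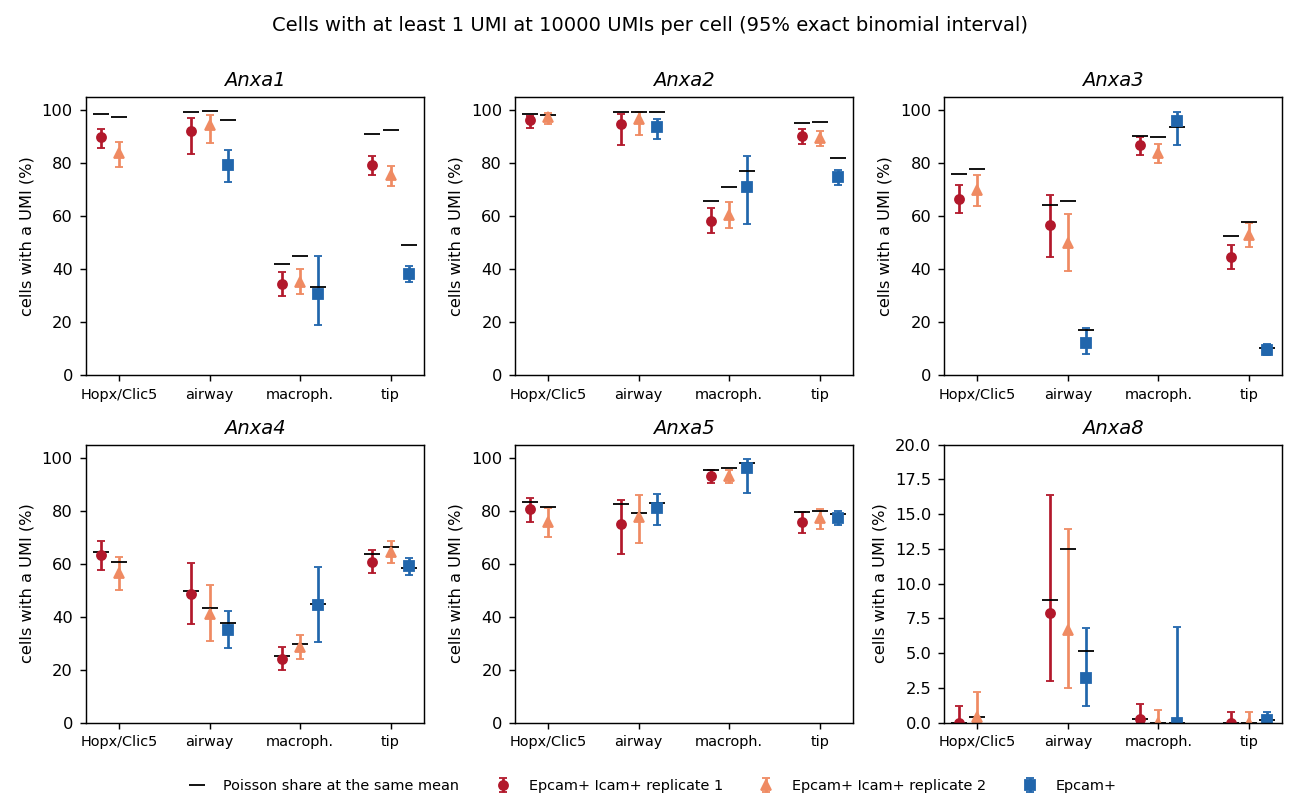
Percent of cells with at least 1 UMI of Anxa1, Anxa2, Anxa3, Anxa4, Anxa5 and Anxa8 after thinning to 10000 UMIs per cell, by class and library, with 95% exact binomial intervals. Black ticks give the share a Poisson spread of the same mean would give. Anxa1 lies below its tick in the tip-like cells of all 3 libraries, and the Anxa8 panel runs to 20%.

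Anxa1 and Anxa2 also went together from cell to cell. Over airway-like cells Pearson's r between their thinned UMIs was 0.51, 0.37 and 0.61 (76, 90 and 189 cells), and over tip-like cells 0.27, 0.39 and 0.37 (500, 504 and 929 cells). Other pairs of members are not given here, so the values do not set this pair apart. The highest tip-like cell of Epcam+ Icam+ replicate 2 held 59 Anxa1 UMIs, and its weight in r was not tested. The airway-like class also mixes Scgb3a2-high cells, in which both genes were higher, with other cells. Cells of a library share free RNA, so these values are descriptions. Across the 11 points of class and library, the genes most like Anxa1 were Btg2 (r = 0.988), Csrp2 (0.985) and Fbln5 (0.982), and those most like Anxa2 were Fbln5 (0.982), Csrp2 (0.981) and Cdkn1c (0.981). Anxa3 was closest to Akap13 (0.942), Pmp22 (0.939) and Tmbim1 (0.929), and Anxa4 to Foxp2 (0.988), Ociad2 (0.982) and Scx (0.980). These were the highest of 2478 genes, and the points share their libraries.

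S100 proteins are calcium-binding partners of several annexins, S100a10 of Anxa2 and S100a11 of Anxa1. S100a10 stood at 167 and 155 CPM in tip-like cells of the Epcam+ Icam+ libraries against 84.4 CPM in the Epcam+ library, a rise of 0.83 ± 0.046 (adjusted p = 2.25e-71, edgeR), and it differed by -0.02 ± 0.13 in airway-like cells (adjusted p = 0.934). The airway-minus-tip contrast of S100a10 was -0.78 ± 0.12 (adjusted p = 2.40e-05), beside the -0.63 of Anxa2. S100a11 rose by 0.70 ± 0.035 in tip-like and 0.53 ± 0.096 in airway-like cells. In tip-like cells 7 of 8 S100 genes tested rose and 0 fell, where 37.5% of all genes tested rose and 36.6% fell, and in all epithelium 9 of 9 rose, where 38.9% of all genes did. Between classes S100a6 was higher in airway-like than in tip-like cells by a mean log2 difference of 2.81 ± 0.62 (SD, 3 libraries) and S100a11 by 1.01 ± 0.11. S100a6 was the largest of the S100 list in Hopx/Clic5-positive cells too, at 0.93 ± 0.091 (2 libraries).

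Of the plasminogen system, 4 of 5 genes with enough counts were past 2-fold higher and 1 past 2-fold lower in macrophage-like cells of every library, where 14.1% of all genes were past 2-fold higher and 12.1% lower. Plau, the plasminogen activator urokinase, was higher by a mean log2 difference of 3.20 ± 1.01 and its receptor Plaur by 3.02 ± 0.26. The inhibitor Serpine2 differed by -2.03 ± 0.26. In tip-like cells 5 of 8 plasminogen genes rose and 2 fell in Epcam+ Icam+, against 37.5% and 36.6% of all genes. Of the formyl peptide receptors, 0 of 5 reached 20 CPM in either class of any comparison. Macrophage-like cells held Fpr2 at 2.14, 2.04 and 2.04 CPM and Fpr1 at 0.557, 0.873 and 0.681 CPM.

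Ahnak, a giant protein that binds the Anxa2 and S100a10 complex, was higher in Hopx/Clic5-positive than in tip-like cells by 0.65 ± 0.048 and Cavin1, a caveola coat protein, by 0.62 ± 0.21. In both Epcam+ Icam+ libraries 0 of 11 membrane repair genes were past 2-fold. Of all 5585 genes only 0.0716% were past 2-fold higher and 0.179% lower, so that count does not set the list apart. Between the sorts Ahnak stood at 89.4 and 84.9 CPM in tip-like cells of Epcam+ Icam+ against 12.2 CPM in the Epcam+ library. Of membrane repair genes tested in tip-like cells, 6 of 15 rose and 7 fell, near the 37.5% and 36.6% of all genes. Among phosphatidylserine genes Stab1, an uptake receptor, was higher in macrophage-like than in tip-like cells by 5.52 ± 0.35 and Gas6, a bridging ligand, by 3.14 ± 0.19. Of 8 genes of that list with enough counts 3 were past 2-fold higher and 1, Mfge8, past 2-fold lower, against the 14.1% and 12.1% of all genes. Of the phospholipase A2 genes Pla2g15 was higher by 2.34 ± 0.48 and Pla2g4a by 1.03 ± 0.16 in macrophage-like cells, and 0 of 4 rose while 3 of 4 fell in tip-like cells of Epcam+ Icam+, against 37.5% and 36.6% of all genes.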

How the data were processed

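UMI counts per gene and barcode, as deposited by the authors, were used for 2 Epcam+ Icam+ libraries and 1 Epcam+ library of 10x 3' single-cell RNA sequencing, grouped by the sample labels. Cell Ranger 2.1.1 and the build mm10 are named in the submitters' processing notes. The matrices themselves carry version 5.0.1 for both Epcam+ Icam+ libraries and 3.0.2 for Epcam+, per the file headers, and how these versions relate is not given in the sources used here. Ensembl IDs matched genes across the tables. Barcodes with at least 1000 UMIs, 500 genes and at most 10% mitochondrial UMIs were kept, and the highest scrublet scores were left out at 0.8% per 1000 barcodes (92, 80 and 72 cells), since the automatic threshold found 0, 1 and 0. Free RNA was not removed.

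The members and gene lists were chosen with earlier results of these data known. Classes were to be named clusters within each library (scanpy 1.11.5, resolution 1, without annexins, Icam1 and Epcam). That rule gave no Hopx/Clic5-positive cluster in any library and no tip cluster in the Epcam+ library, so gates on each cell's UMIs replaced it after the data had been seen. A re-clustering without cell cycle genes and several gate limits were looked at with annexin values in view. The gates kept were an epithelial sum (Epcam, Cdh1, Krt8, Krt18, Nkx2-1) of at least 10 with at most 4 macrophage UMIs, or a macrophage sum of at least 20 with at most 10 epithelial UMIs, and at most 4 UMIs of mesenchyme, endothelium, mast cell and granulocyte genes, per 10000 UMIs. Smooth muscle and mesothelium genes were dropped from the last list because they removed epithelial cells. The cluster versions and the other limits are given as alternatives, apart from the re-clustering, which was not kept. Cells under 10000 UMIs (626, 648 and 368) and cells outside these gates entered no class.

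Counts were summed per class and library and fitted with edgeR 4.0.16 in R 4.3.3 (quasi-likelihood, TMM, filterByExpr, Benjamini-Hochberg at 0.05 over all genes tested). DESeq2 1.42.0 was an alternative. Scripts were tested on simulated data. Class comparisons used log2 differences of CPM with a pseudocount of 5, over genes with a mean of at least 20 CPM in one class, in libraries with at least 20 cells of both. Named genes outside the family were 3 S100 genes, the 2 genes of the lists with the largest difference per class comparison, the 3 genes most like the 4 most variable members, and class check genes. Serpine2, Fpr1, Fpr2, Cldn6, Cldn7 and Spint2 were named or used after values were seen. Promoters came from RefSeq (GRCm38.p6), and 7 of 9 members matched.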

Additional observations from a re-analysis of the deposited data

Results flagged for a closer look

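The difference between the Epcam+ Icam+ libraries and the 1 Epcam+ library was not the same in all cell classes for 3 members, in fits over 14239 genes (edgeR, library as a block, 2 residual degrees of freedom). With 1 Epcam+ library, spread between Epcam+ libraries was not measured, and sort and library cannot be told apart in these values. For Anxa1 the difference was smaller in airway-like than in tip-like cells by a log2 of -0.85 and smaller in macrophage-like than in tip-like cells by -1.44. Anxa2 gave -0.63 and -0.92 in the same contrasts, and Anxa3 gave -2.66 in macrophage-like cells. The gates, the depth of the cells and the Epcam+ library's own processing move with these values, and their part was not tested. The groups hold 2 libraries and 1, too few to look for a single library that stands apart.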

How the results depend on the processing

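In all epithelium, tip-like cells and airway-like cells, Anxa1 and Anxa3 kept the direction and call of the sort difference under every alternative that gave a test. The tip-like Anxa4 value turned to -0.13 with cells thinned to 3000 UMIs. The least stable values were those of macrophage-like cells, where the Epcam+ library holds 52 cells. Anxa3 turned to 0.67, 0.47 and 0.39 there with clusters at resolution 1, at resolution 2 and after a stricter cell filter, and Anxa5 to 0.32 and 0.23 with clusters at resolution 1 and 2. The 3 members called in macrophage-like cells became 0 without the filter on low counts, 0 with DESeq2, 0 with thinning, 1 with a stricter cell filter, 5 with clusters at either resolution and 6 with joint clusters. Calls over all genes there moved as well, from 5175 of 11969. They were 4930 of 17076 without the filter, 2415 of 8468 with DESeq2 and 932 of 8084 with thinning. After the stricter cell filter they were 5379 of 11977 with gates and 6822 of 12716 with clusters. Clusters at resolution 1 and 2 gave 7323 of 12822 and 7149 of 12804, and joint clusters 4430 of 12652. Of the macrophage-minus-tip contrast 3 calls became 1 with thinning (241 of 10791 genes) and 5 with clusters at resolution 2 (2639 of 13935). The count of 1 member past 2-fold in airway-like against tip-like cells became 0 with clusters at resolution 1, at resolution 2 and after the stricter filter, 2 with joint clusters, and 3 at 1.5-fold (background 3.86% higher and 1.75% lower). The count of 1 in macrophage-like against tip-like cells became 2 with thinning, 3 with clusters at resolution 1, 4 with joint clusters and 3 at 1.5-fold (19.6% higher, 23.6% lower), and ran from 1 to 4 with a library left out (4 without Epcam+). Apart from the 1.5-fold counts, these class counts stand without the share of all genes in the same setting. The cause of the changes in this paragraph was not tested.

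Over all genes DESeq2 called 6018 in tip-like cells, 1782 in airway-like, 2415 in macrophage-like, 46 in airway minus tip and 483 in macrophage minus tip, against 9479, 5408, 5175, 354 and 1712 with edgeR, and it gave adjusted p-values to 3727 and 5673 genes in the last 2 contrasts, against 14239. Thinning gave 4649, 1248, 932, 19 and 241 calls. Sort fits without an Epcam+ Icam+ replicate had no residual degree of freedom and are values without a test. No paired analysis was possible because only the Epcam+ Icam+ libraries carry replicate numbers. Clusters at resolution 1 gave no tip-like cluster in the Epcam+ library and no Hopx/Clic5-positive cluster in any, so those comparisons were not run there. Joint clusters held tip-like cells of the Epcam+ library alone, so their class comparisons rest on 1 library and their tip-like, airway-like and difference tests were not run. Clusters at resolution 1 were the planned classes and became an alternative after the data were seen. Gates and the clusters after a stricter cell filter were added after the data were seen. Few airway-like cells and 4 Epcam+ Hopx/Clic5-positive cells limit what depth can show.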
